A study of Nicotiana tabacum with 8 samples.

Results

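CRF6 (unigene c64865_g1) and ARR6 (c67085_g1) are 2 of the 135146 unigenes, assembled transcripts without a reference genome, that were measured in tobacco leaves after cold. Both were chosen by name, CRF6 as a cytokinin response factor and ARR6 as a response regulator, and their names are those the authors took from the most similar known proteins. Leaves of the Nicotiana tabacum cultivars CB-1 and K326 came from plants at the six-leaf stage, and each library pooled the leaves of several plants. The 4 groups, each of 2 libraries, were CB-1 control (CC1 and CC2), CB-1 cold (CT1 and CT2), K326 control (KC1 and KC2) and K326 cold (KT1 and KT2). Cold plants were moved to 4 °C for 1 day, whereas control plants stayed under normal growth conditions; the labels name no transgene and no other treatment. The cultivars differ in cold tolerance, which raises the question of whether the cytokinin response genes reacted to cold alike in both.

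Cytokinins are adenine-derived hormones that promote cell division and delay the ageing of leaves. Receptor histidine kinases (AHK) in the membrane bind the hormone and pass phosphate through carrier proteins to response regulators (ARR) in the nucleus. Type-B regulators such as ARR1 and ARR14 bind DNA and switch on the first response genes, among them the type-A regulators such as ARR4 and ARR6, which lack a DNA-binding domain and dampen the signal. The CRF proteins are transcription factors of the AP2/ERF family, and several of them are raised by cytokinin and act beside the regulators. In Arabidopsis, CRF6 is known to slow leaf senescence and to respond to oxidative stress, and several type-A ARR genes are known to be raised by cold.

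The primers that the authors designed against both unigenes are shown because they are the only sequences of either unigene in the sources used here. Whether each primer matches its unigene alone was not checked. Each is given 5′ to 3′ and is 20 bases long, with a GC content of 50% for the reverse primer of ARR6 and of 55% for the other primers. No part is set in capitals.
CRF6 forward: tttcgtggggttaggcagag
CRF6 reverse: gtcaaagcatcaggaccacg
ARR6 forward: ggaggaaggggctgaagaat
ARR6 reverse: tggcattggttgtgtcgatg

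Every value is the log2 of an estimated transcript abundance plus 1, and the table gives no read counts, so the depth behind each value is unknown. An exact 0 can be an absent transcript or an estimate that failed. The authors also measured both unigenes by qPCR, and the paper reports trends similar to sequencing over the genes so measured. Those qPCR values were not used here. Between 41878 and 51331 unigenes were above 0 in a library, and the 31884 unigenes that reached 1 in 2 or more libraries were tested. Both members passed this filter only through cold libraries, CRF6 through those of both cultivars and ARR6 through those of K326. Across the unigenes tested, which are not independent replicates, CC1 was more like KC2 (Pearson's r = 0.961) than like its replicate CC2 (0.935), and KC1 was more like CC2 (0.947) than like KC2 (0.913). Whether control libraries were exchanged between the cultivars was not tested, so cultivar and control libraries are named as labelled, and a cold response of 1 cultivar rests on those labels. For CRF6 an exchange would change no difference, since all controls were at 0. Results that rest on the control libraries are also given with the 4 control libraries as 1 group where that changed a call. The names used here include no gene that defines leaf tissue, so the tissue label was not checked.

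CRF6 was listed at 0 in all control libraries and was well above 0 in all cold libraries of both cultivars. Its log2 values were 0 and 0 in CB-1 control leaves (replicate 1 first here and in the values that follow) and 4.25 and 4.98 in CB-1 cold leaves, against 0 and 0 in K326 control leaves and 5.45 and 4.81 in K326 cold leaves. Control and cold libraries thus did not overlap in either cultivar, and all 4 cold libraries lay above all 4 control libraries, as they did for 20.6% of the unigenes tested. The cold libraries of CB-1 lay above its controls for 30.1% of unigenes, and those of K326 for 28.0%. Among the cold libraries, CT1 was the lowest and KT1 the highest, and KT2 fell between CT1 and CT2. On the linear scale the abundance was 18.0 in CT1, 30.5 in CT2, 42.6 in KT1 and 27.0 in KT2. No fold change is given against a control group at 0.

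**Figure D1:**
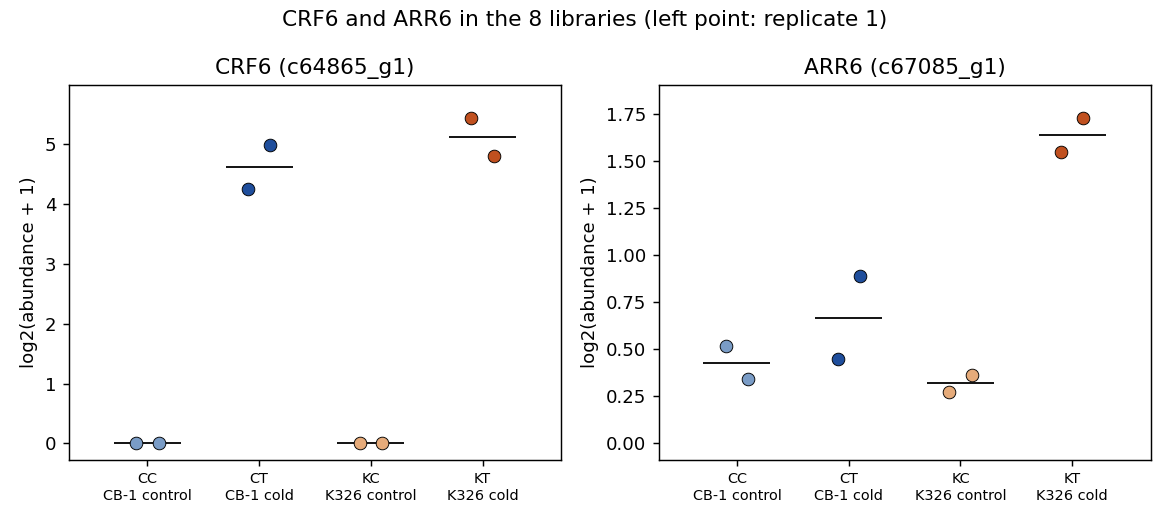
Values of CRF6 (left) and ARR6 (right) as log2(abundance + 1) in the 8 libraries. Each point is a library, the left point of a group is replicate 1, and the bar is the mean of 2 libraries; the vertical scales differ. CRF6 is at 0 in all control libraries and between 4.25 and 5.45 in the cold, whereas ARR6 stands apart only in the K326 cold libraries, at 1.54 and 1.73.

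The mean of CRF6 in the cold was 4.61 ± 0.52 in CB-1 and 5.13 ± 0.45 in K326 (log2 values, SD, n = 2). The cold minus control difference had a standard error of 0.31 in either cultivar. The fit shares 1 spread over the 4 groups, and the controls at 0 had an SD of 0, which lowers that spread. The p-values from this fit carry the same limit. After Benjamini-Hochberg adjustment for all unigenes tested, the adjusted p from limma was 0.000426 for the difference of 4.61 in CB-1 and 0.000332 for that of 5.13 in K326. A unigene was called at an adjusted p-value under 0.05 and a difference over 1 on the log2 scale, which 15.5% of the unigenes passed as higher in CB-1, 14.7% in K326 and 10.3% in both. Of the unigenes tested, 99.6% had a smaller difference than CRF6 in CB-1 and 99.7% in K326. The paper lists CRF6 among its top differentially expressed transcription factors from these same libraries. Its p-values and place among all unigenes are therefore a description and not independent evidence. The median difference of all unigenes was −0.20 in CB-1 and −0.31 in K326, so that CRF6 lay 4.81 and 5.43 above it. Median-ratio scaling between libraries brought these medians to 0.00 and raised the share of higher values among the calls, which was 47.0% in CB-1 and 42.9% in K326, to 57.9% for both cultivars.

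With controls at 0, the difference of CRF6 depended on the constant added before the log. With 0.1 in place of 1 it was 7.88 in CB-1 and 8.41 in K326. Both calls of CRF6 were lost in a test of single unigenes on only the 4 libraries compared and without moderation of the variance, at adjusted p-values of 0.0586 and 0.0510. Treatment labels shuffled within each cultivar gave a two-sided exact permutation p = 0.0556 for the mean difference of 4.87 over both cultivars, the smallest value that 36 arrangements allow. Leaves hold many cell types, and more RNA of CRF6 per cell cannot be told apart from more cells that express it.

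CRF6 was not detectably different between the cultivars. In the cold, K326 exceeded CB-1 by 0.51 on the log2 scale, with a 95% interval from −0.24 to 1.27 and an adjusted p = 0.578 (limma with Benjamini-Hochberg adjustment). The difference between the cold responses was the same 0.51, since all controls were at 0, with a wider interval from −0.56 to 1.58 (adjusted p = 0.812 from limma). A response larger in K326 by up to 1.58 or smaller by up to 0.56 is therefore within these limits. Both intervals use a spread shared with the controls, which at 0 show none, so they may be too narrow. On the linear scale the abundance of CRF6 in the cold was 1.43 times as high in K326 as in CB-1, with 0.885 to 2.36 between single libraries. The estimate moved with single libraries, to 0.15 without CT1, 0.20 without KT1, 0.83 without KT2 and 0.88 without CT2, and was not called in any of these cases.

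ARR6 was low in the controls of both cultivars and was called as higher in the cold in K326 but not in CB-1. Its log2 values were 0.52 and 0.34 in CC, 0.45 and 0.89 in CT, 0.28 and 0.37 in KC and 1.54 and 1.73 in KT. Both K326 cold libraries lay above the 6 other libraries, an arrangement shown by 9.28% of the unigenes tested, and 19.0% had both KT libraries above both CT libraries. Ordered by their means, the groups ran from KC over CC and CT to KT, and neighbours among the first 3 groups overlapped. In CB-1 the cold libraries parted, with CT1 between the controls CC2 and CC1 and CT2 above both.

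In K326 the mean of ARR6 went from 0.32 ± 0.06 to 1.64 ± 0.13 (log2 values, SD, n = 2). This difference of 1.32 had a standard error of 0.23 and an adjusted p = 0.00639 (limma with Benjamini-Hochberg adjustment). Of all unigenes, 4.35% were, like ARR6, called higher in K326 and not called in CB-1. The difference lay 1.62 above the median of all unigenes, and 86.5% of the unigenes tested had a smaller one. The log scale with 1 added compresses values this low. On the linear scale the abundance of ARR6 was 0.210 in KC1 and 0.289 in KC2 against 1.92 in KT1 and 2.32 in KT2, a ratio of the means of 8.49. Ratios between single libraries ranged from 6.64 to 11.0, and with 0.1 added before the log the difference was 2.67. The call for ARR6 was kept without a filter on low values, at an adjusted p = 0.0209 in limma. It was lost in the test of single unigenes without moderation on only the libraries compared, with 0.0588 as the adjusted p-value.

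In CB-1 the mean of ARR6 was 0.43 ± 0.12 in the control and 0.67 ± 0.31 in the cold (log2 values, SD, n = 2). The difference of 0.24 had a 95% interval from −0.32 to 0.80 and limma gave an adjusted p = 0.431 (Benjamini-Hochberg), and a change was not detectable. It was 0.02 without CT2 and 0.46 without CT1, and linear ratios between single libraries ran from 0.844 to 3.19.

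The test of the difference itself did not pass for ARR6. The cold response was 1.08 larger in K326 than in CB-1, with a 95% interval from 0.29 to 1.87, an unadjusted p of 0.0155 and an adjusted p of 0.378 (interaction contrast in limma, Benjamini-Hochberg adjustment). An unadjusted p-value under 0.05 for this contrast was found for 9.20% of all unigenes, and 0 unigenes passed after adjustment in limma, 2934 having an unadjusted p under 0.05, while 143 passed without moderation of the variance. In the cold libraries ARR6 was 0.97 higher in K326 than in CB-1, with an interval from 0.41 to 1.53 and an adjusted p = 0.137 (limma), where 0.405% of unigenes were called, 0.248% as higher and 0.157% as lower. On the linear scale this was a ratio of 3.50 for ARR6, with 2.26 to 6.40 between single libraries. The control libraries differed by −0.11 (adjusted p of 1 in limma). With the 4 control libraries as 1 group the controls cancel, and the difference in response reduces to that between the cold libraries. It was the same 0.97, with an adjusted p = 0.0734 (limma). That was the lowest adjusted p among 15 alternatives, in which it ranged up to 0.658. The direction was the same in all 15, with estimates between 0.86 and 2.08 and unadjusted p-values between 0.00260 and 0.0445. The exact permutation test of ARR6 over both cultivars gave a two-sided p = 0.111 for a mean difference of 0.78.

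**Figure D2:**
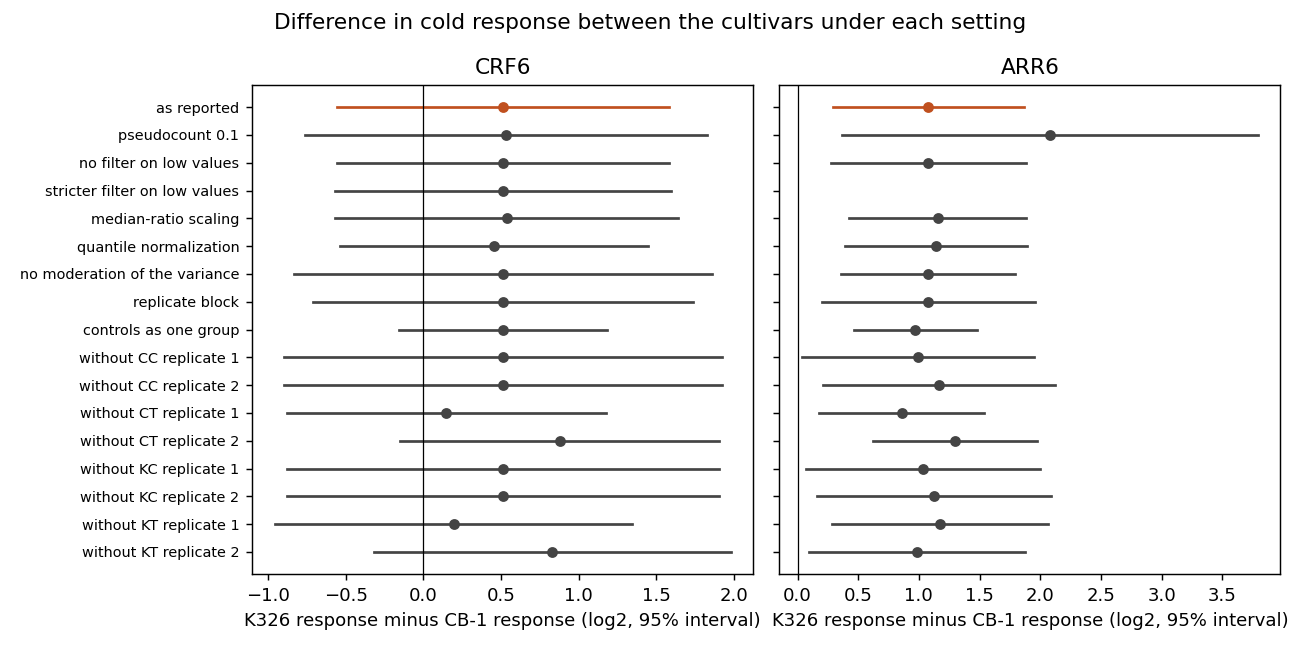
Difference between the cold responses of K326 and CB-1 (log2 scale, horizontal axis) for CRF6 and ARR6 under each way of processing the data (rows), with 95% intervals from limma or, without moderation, from the single unigene. For CRF6 every interval includes 0, around estimates from 0.15 to 0.88; for ARR6 every interval lies above 0, and no adjusted p-value was under 0.05. ARR6 has no entry under the stricter filter, which it did not pass. With controls as one group the value reduces to the difference between the cold libraries.

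The other cytokinin pathway unigenes that the authors named for qPCR, 5 besides CRF6 and ARR6, cover the chain from receptor to regulator. In CB-1 the calls among all 7 were 3 rises and 2 falls, with a median difference of 0.87, and in K326 they were 4 rises and 1 fall, with a median of 1.20 (limma, Benjamini-Hochberg). Among the 5 without CRF6 and ARR6 they were 2 rises and 2 falls in CB-1 and 2 rises and 1 fall in K326. The medians of these 5 were 0.87 and 1.08. Over all unigenes the medians were −0.20 and −0.31, and calls were made for 32.9% of unigenes in CB-1 and for 34.2% in K326. These 7 were chosen by the authors from the same plants, so their count is not independent evidence of a direction. None of them was called for the difference between the cultivars, and ARR6 alone had an unadjusted p under 0.05 for it.

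The receptors had lower values in the cold libraries than in the controls of the same cultivar. AHK3, a cytokinin receptor that in Arabidopsis leaves is tied to the delay of senescence, measured on the log2 scale 3.76 and 4.14 in CC, 2.65 and 2.48 in CT, 3.93 and 3.79 in KC and 2.60 and 3.04 in KT. All cold libraries of AHK3 lay under all control libraries, as for 33.3% of the unigenes tested. With a standard error of 0.22, it fell by 1.39 in CB-1 (adjusted p = 0.00511) and by 1.04 in K326 (adjusted p = 0.0121, both limma). Calls of lower values were made for 17.4% of unigenes in CB-1, 19.5% in K326 and 13.4% in both. In K326 the call was lost with median-ratio scaling, where AHK3 fell by 0.63, and also with quantile normalization or without KC1 or KT1, where it fell by 0.88, 0.97 and 0.83. Without moderation and with only the groups compared, both calls of AHK3 were lost, at adjusted p-values of 0.0928 in CB-1 and 0.124 in K326.

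AHK4, a receptor best known from roots in Arabidopsis, measured on the log2 scale 5.18 and 4.26 in CC, 2.18 and 3.10 in CT, 3.90 and 4.55 in KC and 2.44 and 3.46 in KT. All cold libraries of AHK4 lay under all control libraries, as for 33.3% of the unigenes tested, but the SD between replicates ran from 0.46 in KC to 0.72 in KT. With a standard error of 0.53, it fell by 2.08 in CB-1 (adjusted p = 0.0229), and its difference in K326 was −1.27 (adjusted p = 0.0946, both limma). The call of AHK4 in CB-1 was lost without CC1 or CT1, at −1.62 in either case, and also without a filter, without moderation and with only the groups compared. In K326 the difference passed with the 4 control libraries as 1 group, at −1.52 (adjusted p = 0.0249, limma). It was −0.76 without KT1 and −1.79 without KT2, and was not called in either case.

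The type-B regulators were called higher in the cold in both cultivars, as were 10.3% of the unigenes tested. Calls of higher values were made for 15.5% of unigenes in CB-1 and 14.7% in K326. ARR1, an activator of the first response genes, measured on the log2 scale 2.87 and 2.78 in CC, 4.27 and 4.44 in CT, 2.62 and 2.93 in KC and 3.92 and 4.03 in KT. With a standard error of 0.17, it rose by 1.53 in CB-1 (adjusted p = 0.00166) and by 1.20 in K326 (adjusted p = 0.00330, both limma), and linear ratios of the means were 3.21 and 2.51. Both calls of ARR1 were lost without moderation and with only the groups compared, where the adjusted p-values were 0.0516 and 0.0847. For ARR1 the difference between the cultivars was −0.33, with a 95% interval from −0.92 to 0.26.

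ARR14, also of type B, resembled CRF6 in having 0 for all control libraries. With all cold libraries above 0, this pattern was shown by 5.71% of the unigenes tested. Its log2 values in the cold were 1.38 and 1.35 for CB-1, and 1.03 and 1.13 for K326. It rose by 1.37 in CB-1 (adjusted p = 0.00304) and by 1.08 in K326 (adjusted p = 0.00611, both limma, standard error 0.19). As for CRF6, the size depended on the constant added, and with 0.1 it was 4.07 in CB-1 and 3.60 in K326. Both calls of ARR14 were kept without moderation and with only the groups compared, at adjusted p-values of 0.0162 and 0.0436. The controls at 0 had an SD of 0, so the spread in that test came from the cold libraries alone. Passing it therefore does not make ARR14 a firmer result than CRF6. Like CRF6, it passed the filter only through cold libraries. Its SD between cold replicates was 0.02 in CB-1 and 0.07 in K326 (log2 values, n = 2), against 0.52 and 0.45 for CRF6. On the linear scale ARR14 was only 1.04 to 1.61 in the cold libraries, against 18.0 to 42.6 for CRF6. The log scale with 1 added compresses values as low as those of ARR14, so the SDs of the unigenes are not comparable.

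ARR4 is of type A like ARR6, and it was not called in either cultivar. It measured on the log2 scale 3.06 and 2.04 in CC, 3.06 and 3.78 in CT, 2.0 and 3.08 in KC and 4.02 and 3.87 in KT. The cold libraries lay above the controls in both cultivars, as for 30.1% of the unigenes tested in CB-1 and 28.0% in K326. In CB-1 this rested on a very small gap, since CT1 and CC1 were both at 3.06. The controls of ARR4 followed the likeness of the libraries described above, with CC1 beside KC2 and CC2 beside KC1. Its difference was 0.87 in CB-1 (adjusted p = 0.205) and 1.40 in K326 (adjusted p = 0.0601, both limma). In K326 it passed with the 4 control libraries as 1 group, at 1.40 and an adjusted p = 0.0205 (limma), and also with median-ratio scaling, with quantile normalization and without KC2. Single libraries moved both values of ARR4. In CB-1 its difference was 1.37 without CC1, 0.36 without CC2 and 0.51 without CT2, and in K326 it was 0.86 without KC1 and 1.94 without KC2. Thus neither type-A regulator was called in CB-1, and the difference between the cultivars for ARR4, 0.53, had a 95% interval from −1.16 to 2.23.

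**Figure D3:**
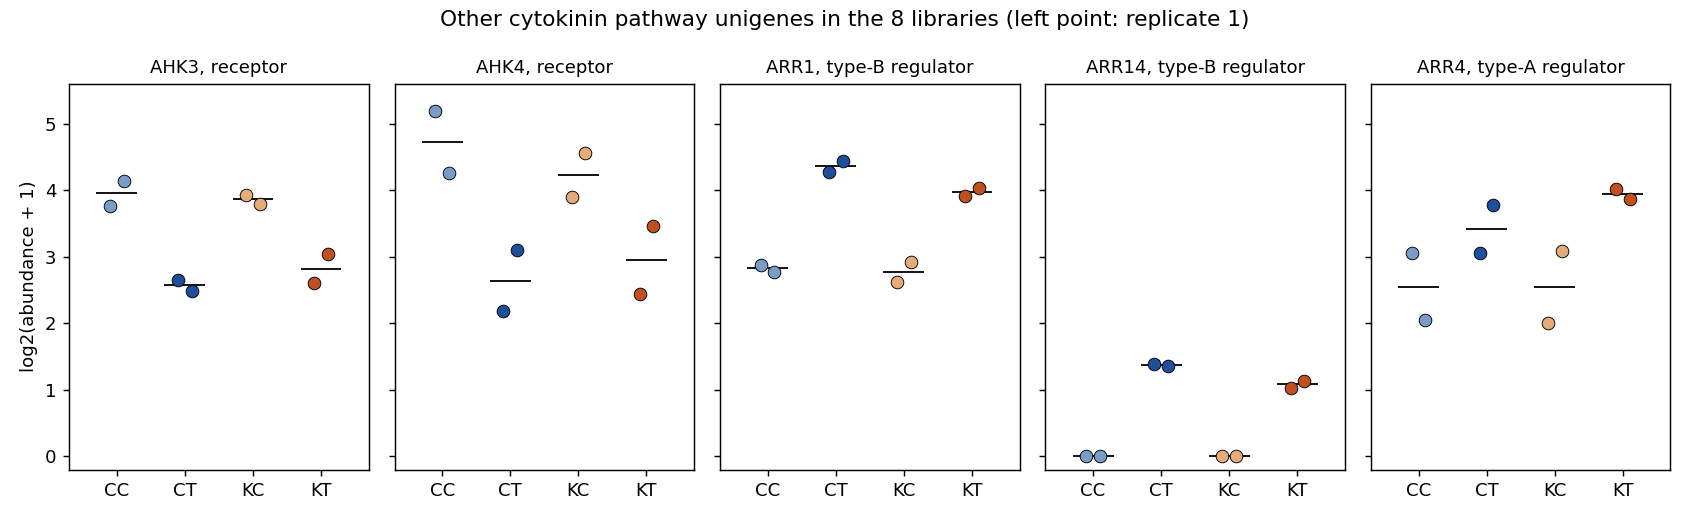
Values of the 5 other cytokinin pathway unigenes as log2(abundance + 1) in the 4 groups. Points are libraries, the left one replicate 1, and bars are means of 2 libraries; levels are to be compared within a panel and not between unigenes. The receptors AHK3 and AHK4 are lower in the cold groups CT and KT, ARR1 and ARR14 are higher, and the controls of ARR4 spread from 2.0 to 3.08.

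**Figure D4:**
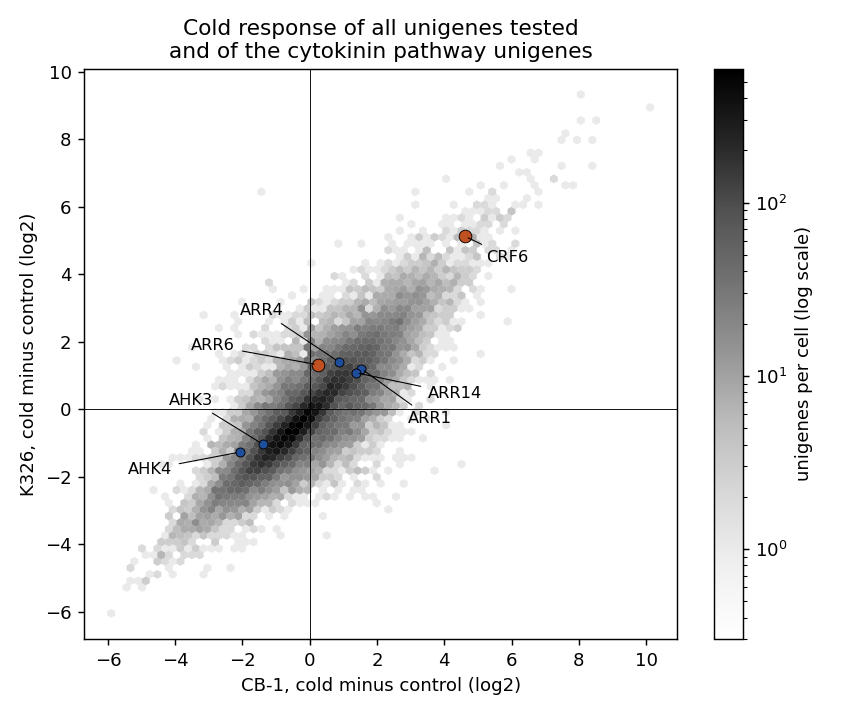
Cold minus control difference on the log2 scale in CB-1 (horizontal) and K326 (vertical) for the 31884 unigenes tested, as grey cells shaded by the number of unigenes on a log scale, with the 7 cytokinin pathway unigenes as points. CRF6 lies near the upper end in both cultivars, at 4.61 and 5.13, and ARR6 lies at 0.24 in CB-1 and 1.32 in K326.

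CRF6 was also set beside the AP2/ERF family to which it belongs. The set used here was the 25 AP2/ERF unigenes, CRF6 included, that the main text, its tables and a supplementary table pair with a name. The study counts more members of this family, which were not used here, so the counts and ranks hold for the 25 alone. Some of the 25, CRF6 among them, were listed for their change in the cold, and all were tested. Their counts and the ranks of CRF6 are therefore not independent evidence of a direction or of its size. Their calls in CB-1 were 12 rises and 2 falls, with a median difference of 1.82, and those in K326 were 14 rises and 5 falls, with a median of 3.13 (limma with Benjamini-Hochberg adjustment). Beside them, 15.5% of all unigenes were called higher and 17.4% lower in CB-1, with a median of −0.20, and 14.7% higher and 19.5% lower in K326, with a median of −0.31. By the size of the difference CRF6 had rank 2 of the 25 in CB-1, after ABR1 (c74525_g2, 5.09), a factor that in Arabidopsis represses abscisic acid responses. In K326 the difference of CRF6 had rank 4, after DREB1F (c64765_g1, 5.69), ABR1 (5.53) and DREB2H (c71056_g1, 5.25), where ERF109 (c79891_g2) followed with 4.98. The standard error of the difference of CRF6 in K326 was 0.31, so that its place among these neighbours, which were named after their values were seen, is not fixed by the data.

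The pattern of 0 in all controls and above 0 in all cold libraries was shared by 1821 of the unigenes tested, or 5.71%. The lowest cold library of CRF6, CT1 at 4.25, was reached or exceeded in all cold libraries by 33 of these, CRF6 included. Likeness was measured as the root mean square difference of the log2 values over the 8 libraries. Of 62 other named unigenes that were tested, HSFA4B (c77368_g4), a heat shock factor, was closest to CRF6, at 0.27 log2 units. ERF053 (c81375_g1), of the same AP2/ERF family, was at 0.43, and WRKY6 (c83950_g2), a factor linked to senescence in Arabidopsis, was at 0.45. Over all unigenes tested, the unnamed c81829_g1 and c75649_g2 were closest, at 0.18 and 0.21. The first of these measured on the log2 scale 4.64 in CT1, 5.24 in CT2, 5.28 in KT1 and 4.93 in KT2, with all controls at 0, and its cold libraries had the same order as those of CRF6.

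For ARR6 the same measure, which also counts a constant gap in level between unigenes, gave larger values than for CRF6 among the named unigenes only. Of the named unigenes ARR14 had the smallest, a root mean square difference of 0.54, and came at rank 1507 among all unigenes tested. GAI (c74180_g1), a repressor of gibberellin responses, was at 0.65, at rank 2952 among all unigenes tested. Its log2 values were also highest in KT1 and KT2, an arrangement shown by 9.28% of the unigenes tested. They were 2.57 in both, with 1.91 in CT2 and 0 in CT1. A Pearson correlation, which leaves out such gaps, was higher with ARR6 for GAI (0.95) than for ARR14 (0.61), as a description over 8 libraries that share their treatment groups. DREB2A (c70895_g1) was at 0.74. Among all unigenes tested, the unnamed c68297_g1 was nearest to ARR6, at 0.12, with 1.46 in KT1 and 1.83 in KT2 against 0.36 in CT1, 1.06 in CT2 and 0.35 to 0.61 in the controls. For c80479_g3 the root mean square difference from ARR6 was 0.18.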

How the data were processed

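RNA of pooled tobacco leaves was sequenced by the authors in 8 libraries, 2 in each of 4 groups. They assembled the high-quality reads with Trinity, mapped them with bowtie, estimated unigene abundance with RSEM, and deposited it as log2(value + 1). The scaling is not given in the sources used here, and the linear values sum to 409394 to 469248 a library and so are not TPM. Names come from the paper; 0 of 2 matched a RefSeq symbol. No table links the unigenes to a genome, so no position is given.

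Unigenes reaching 1 in 2 or more libraries were fitted with limma 3.58.1 (R 4.3.3) as 4 group means, with variance moderated along the mean and Benjamini-Hochberg adjustment; the script was tested on simulated data. An alternative left out moderation, as in the test the paper's methods name. The members and lists were chosen with earlier results of these data known. Named were both members, the cytokinin unigenes the paper names, and those most like a member by root mean square difference (3 named and 2 of all). The methods state repeated experiments but the labels do not say how replicates were grown, so p-values measure only the spread between these libraries. Other settings were a constant of 0.1, other filters and scalings, other fits and leaving out each library, with the filter kept from all 8 libraries.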

Additional observations from a re-analysis of the deposited data

How the results depend on the processing

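CRF6 and ARR6 kept the direction of every cold response under all alternatives run, and their calls under all but 1, chosen after seeing the data: without moderation and with only the groups compared, CRF6 in CB-1 (4.61, adjusted p = 0.0586) and in K326 (5.13, adjusted p = 0.0510) and ARR6 in K326 (1.32, adjusted p = 0.0588) missed the threshold. ARR6 gave no value under the stricter filter of at least 1 in 4 libraries. The difference of ARR4 between the cultivars turned to −0.008 without KC1 and ranged up to 1.07 without 1 library. Leaving out 1 library gave CRF6 4.25 to 4.98 in CB-1 and 4.81 to 5.45 in K326, and ARR6 0.02 to 0.46 and 1.22 to 1.41. The replicate numbers do not pair libraries by the labels, and deviations of same-numbered libraries correlated between −0.38 (CC and KC) and 0.04. With a replicate block, calls numbered 10066 in CB-1 and 10616 in K326, and no call of CRF6 or ARR6 changed.

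Over all unigenes, the fit without moderation and with only the groups compared left 1877 calls in CB-1 and 1892 in K326. Without a library they ranged from 7250 to 10085 and from 7823 to 10663. For the difference in response, 143 passed without moderation. With controls as 1 group it reduces to the difference between the cold libraries, and 820 passed. Between the cold libraries, 129 calls became 0 without a filter, with the stricter filter, with the replicate block and with only the groups compared, 295 with median-ratio scaling, 225 with quantile normalization, 217 and 34 without moderation in all groups and in those compared, 820 with controls as 1 group, and 0 to 719 without a library. Between the control libraries, 13 and 1 passed without moderation in all groups and in those compared. The table holds no counts for single unigenes, so how far depth limits the low values of ARR6 is unknown. By the paper's read summary, CT1 had the fewest high-quality reads of all libraries and CT2 the most.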

Other observations

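The paper names 2 further unigenes of cytokinin metabolism in a listing ordered by the difference between the cultivars, and since they stand there for that difference their values are a description with no test. CKX5 (c82432_g1), an enzyme that breaks cytokinins down, measured on the log2 scale 2.04 and 1.87 in CC, 1.18 and 2.72 in CT, 1.61 and 2.56 in KC and 5.15 and 3.40 in KT. The K326 cold libraries of CKX5 were above all others, as those of ARR6 were and as for 9.28% of the unigenes tested. CT1 was the lowest of all libraries for CKX5. ZOG1 (c30781_g2), an enzyme that stores zeatin as a glucoside, measured on the log2 scale 3.75 and 3.17 in CC, 2.01 and 2.50 in CT, 3.71 and 3.29 in KC and 0.54 and 0.79 in KT. All cold libraries of ZOG1 lay under all controls, as for 33.3% of the unigenes tested. Those of K326 also lay under those of CB-1. No share of all unigenes was computed for that arrangement, and its reverse was shown by 19.0%, so whether it is unusual was not tested. CKX5 was at its highest and ZOG1 at its lowest of the 4 groups in the K326 cold libraries. Both were listed for a difference between the cultivars, so these places are no evidence on CRF6 or ARR6.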
